A study of Mus musculus with 6 samples.

Results

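The mitochondrial solute carriers of the SLC25 family and the uncoupling proteins *Ucp2* and *Ucp3* were examined in gastrocnemius (GAS) muscle of Kvβ2 knockout (KO) and wild-type (WT) mice. Members were the genes of the expression table whose symbol was Slc25a followed by digits, or was *Ucp2* or *Ucp3*. The table held 46 such genes among 37979, and the choice used symbols only, with no expression value. Each of the 46 gene identifiers was found in the GRCm38 annotation.

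The GAS muscles came from male mice aged 20 weeks, 3 Kvβ2 KO and 3 WT, with 1 library from each mouse. KO mice were homozygous for a null allele of *Kcnab2*, the gene for the Kvβ2 subunit of voltage-gated potassium channels, and were bred from heterozygous null mice. The allele is carried from conception and in every tissue, so an effect within muscle fibres cannot be told apart from an effect of other tissues. No mouse was treated, and total RNA was made into poly(A)-selected, strand-marked libraries. The libraries carry replicate numbers 1, 7 and 8 in each genotype, and values are given in that order. Each mouse gave 1 library, so p-values measure the spread between mice and the technical spread together.

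Carriers of the SLC25 family are built on a common fold and lie mostly in the inner mitochondrial membrane, which most metabolites cannot cross without a transporter. They exchange ATP for ADP, bring in phosphate, move the acids and amino acids of the redox shuttles, and carry acylcarnitines, cofactors and iron. The uncoupling proteins belong to the same family. UCP1 lets protons leak back across the membrane in brown fat, UCP3 is found chiefly in skeletal muscle and brown fat, and UCP2 is more widely expressed. In muscle the adenine nucleotide carrier and the phosphate carrier serve ATP synthesis directly.

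Values are fragment counts scaled to transcript length and to the depth of each library (FPKM), a level per unit of length. The steps between low FPKM values corresponded to about 20600000 to 21610000 fragments in WT libraries and 14920000 to 19340000 in KO libraries, so that 1 fragment on a 1 kb transcript was worth 0.0463 to 0.0670 FPKM. *Kcnab2* was low in this muscle, at 0.233, 0.10 and 0.110 FPKM in WT and at 0, 0.0151 and 0 FPKM in KO. The skeletal muscle markers *Ckm* and *Acta1* were at 2675 FPKM or more in each library, while the fast-fibre genes *Myh4* and *Tnnt3* were listed at 0 in all 6. A listing at 0 cannot tell absent RNA from a gene that was not quantified, so these zeros are not read as absence. Some marker sums differed between the genotypes without overlap, though no marker gene had an adjusted p under 0.05 by limma. The summed level of 6 white adipocyte markers was 7.76 to 35.1 FPKM in WT and 45.3 to 172 FPKM in KO, with the highest value in KO replicate 7, and 5 of the 6 were higher in KO at an unadjusted p under 0.05. The erythroid markers, 4 of 6 in the table, summed to 64.9 to 98.2 FPKM in WT and 113 to 228 FPKM in KO. The sum of the skeletal muscle markers, in which *Myh4* and *Tnnt3* count as 0, was 20683 to 29966 FPKM in WT and 34677 to 36087 FPKM in KO. That of 6 slow-fibre genes, none of which passed an unadjusted p of 0.05, ranged from 31.3 FPKM in WT replicate 8 to 1602 FPKM in KO replicate 8. The sums for leukocytes (17.9 to 31.6 FPKM in WT, 20.5 to 48.5 in KO), endothelium (34.8 to 36.99 and 32.7 to 43.01) and Schwann cells (12.1 to 59.6 and 13.4 to 82.8) overlapped. In whole muscle, fewer cells of a type and less RNA per cell cannot be told apart.

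The carrier genes spanned a wide range of levels in the GAS muscle. Averaged over the 6 libraries, 4 members were at 100 FPKM or more, 11 lay between 10 and 100, 21 between 1 and 10, 2 between 0.5 and 1, and 8 below 0.5 FPKM. The summed FPKM of the 46 members was 2356 to 2801 in single libraries. *Slc25a4* and *Slc25a3*, the muscle adenine nucleotide carrier and the phosphate carrier, held 74.1% to 79.5% of that sum. The 5 members with the highest means, which added *Slc25a11*, *Slc25a12* and *Slc25a25*, held 88.6% to 89.8% in each library. *Slc25a25* had its high mean through both replicates numbered 8, and *Slc25a20* was above it in the other 4 libraries.

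**Figure D1:**
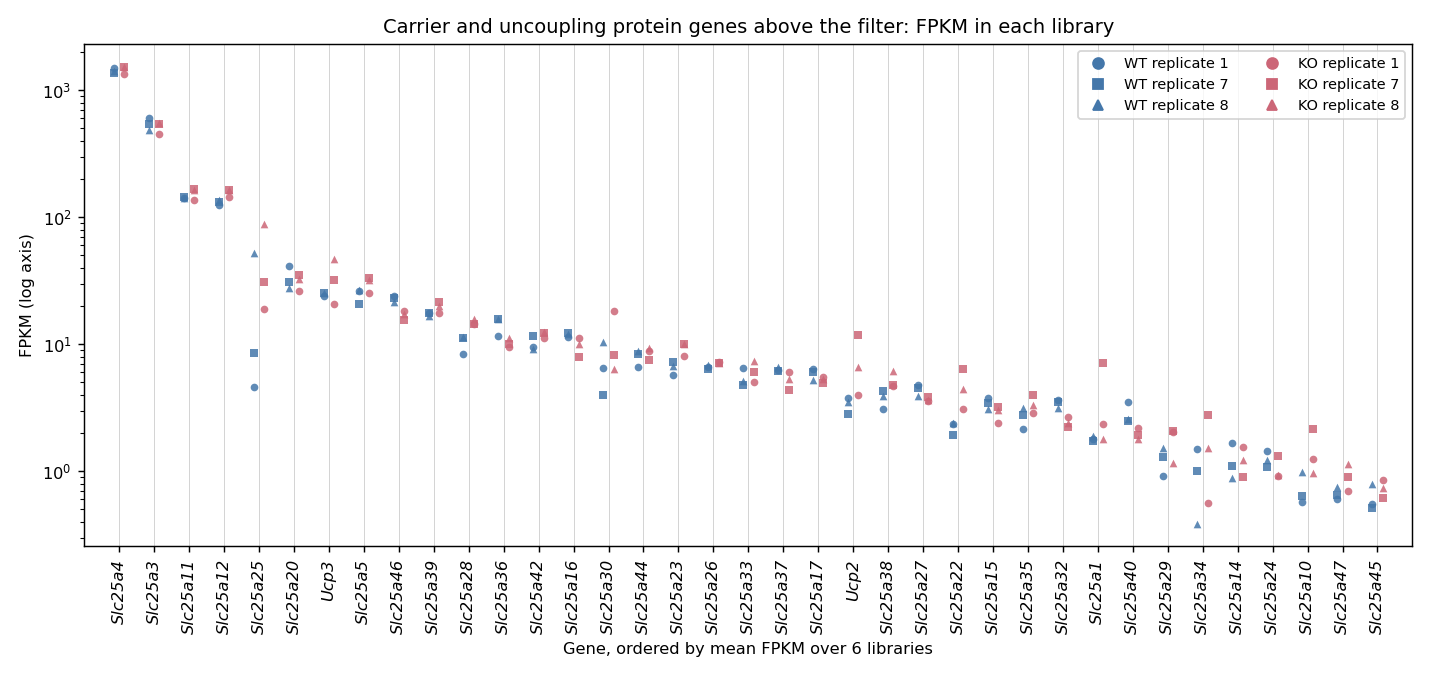
FPKM, on a log10 vertical axis, of 37 of the 38 carrier genes above the filter of 0.5 FPKM, ordered from left to right by their mean. Each point is 1 GAS muscle library, with WT in blue and KO in red and a symbol for each replicate number. *Slc25a4* and *Slc25a3* stand above the rest, and the libraries lie furthest apart for *Slc25a25* among the abundant members.

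A single limma fit of log2(FPKM + 0.1) took in the genes that averaged 0.5 FPKM or higher, and 38 of the 46 members passed this filter. Fold changes are KO relative to WT on that log2 scale. No member had an adjusted p under 0.05 by limma, where 40 of 12334 tested genes did, or 0.324%. Of those 40 genes, 31 were higher (0.251% of those tested) and 9 lower in KO (0.073%), a split that became 11 and 7 after quantile normalization. The lowest adjusted p of a member was 0.0853, for *Slc25a46*. At an unadjusted p under 0.05 there were 11 members, 28.9% of those tested, against 26.2% of all tested genes. Of these, 7 were higher in KO (18.4%, against 15.3% of all tested genes) and 4 lower (10.5%, against 10.9%). The count of 11 fell to 6 without KO replicate 7, to 6 without WT replicate 1 and to 7 without WT replicate 7.

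Levels that did not overlap between the genotypes were also about as common among the carriers as elsewhere. In 7 members every KO library lay above every WT library (18.4%, against 18.3% of all tested genes), and in 7 every KO library lay below (18.4%, against 16.2%). The direction of the fold changes was less even. The log2 fold change was above 0 for 26 of 38 members, or 68.4%, against 51% of all tested genes. The median log2 fold change of the members was 0.20, and that of all tested genes was 0.01.

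**Figure D2:**
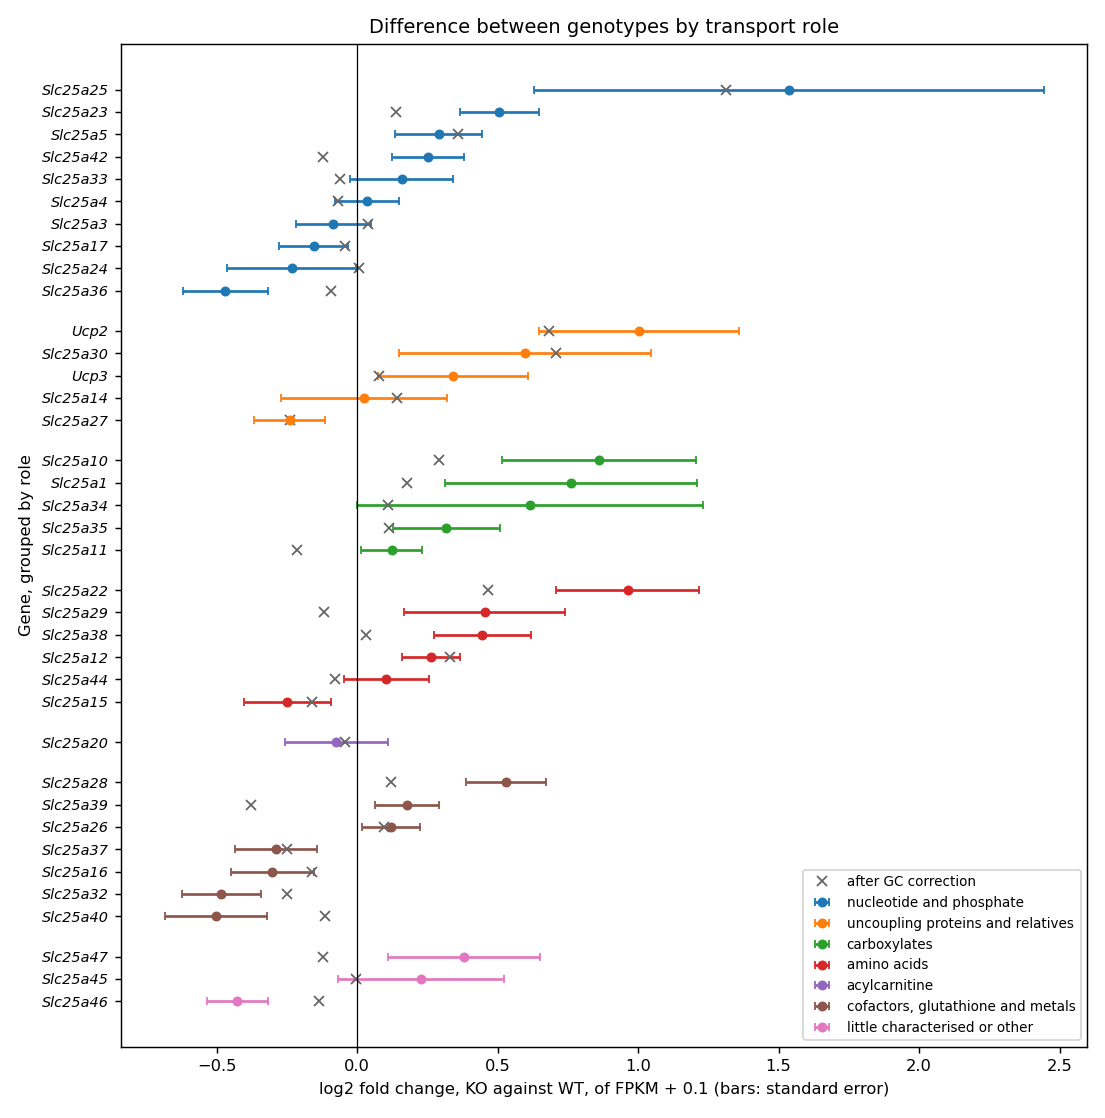
Log2 fold change, KO relative to WT, of 37 of the 38 tested carrier genes grouped by what they carry, as points with bars of 1 SE from the limma fit and crosses for the value after the GC correction described beside the plot of GC content. All 5 carboxylate and 5 of 6 amino acid carriers have points to the right of 0, the cofactor and metal carriers fall on both sides, and none reached an adjusted p under 0.05 in the limma fit.

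The median GC content was higher in the tested carriers than in all tested genes, and fold changes followed GC content across the table. The median GC content of the annotated transcripts was 53.4% for the tested members and 50.1% for all tested genes with a value. Across tested genes the log2 fold change had a Spearman correlation of 0.70 with GC content, and across the 38 members it was 0.78. These are descriptions across genes of the same 6 libraries, and genes are not replicates. When each library's trend on GC content was removed, the median log2 fold change of the members moved from 0.20 to -0.02. Then 1 member was higher at an unadjusted p under 0.05, against 5.72% of all genes tested, and 1 was lower, against 5.47%. The higher one was *Slc25a12* and the lower one *Slc25a39*. Genotype and the GC trend cannot be told apart in these 6 libraries.

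**Figure D3:**
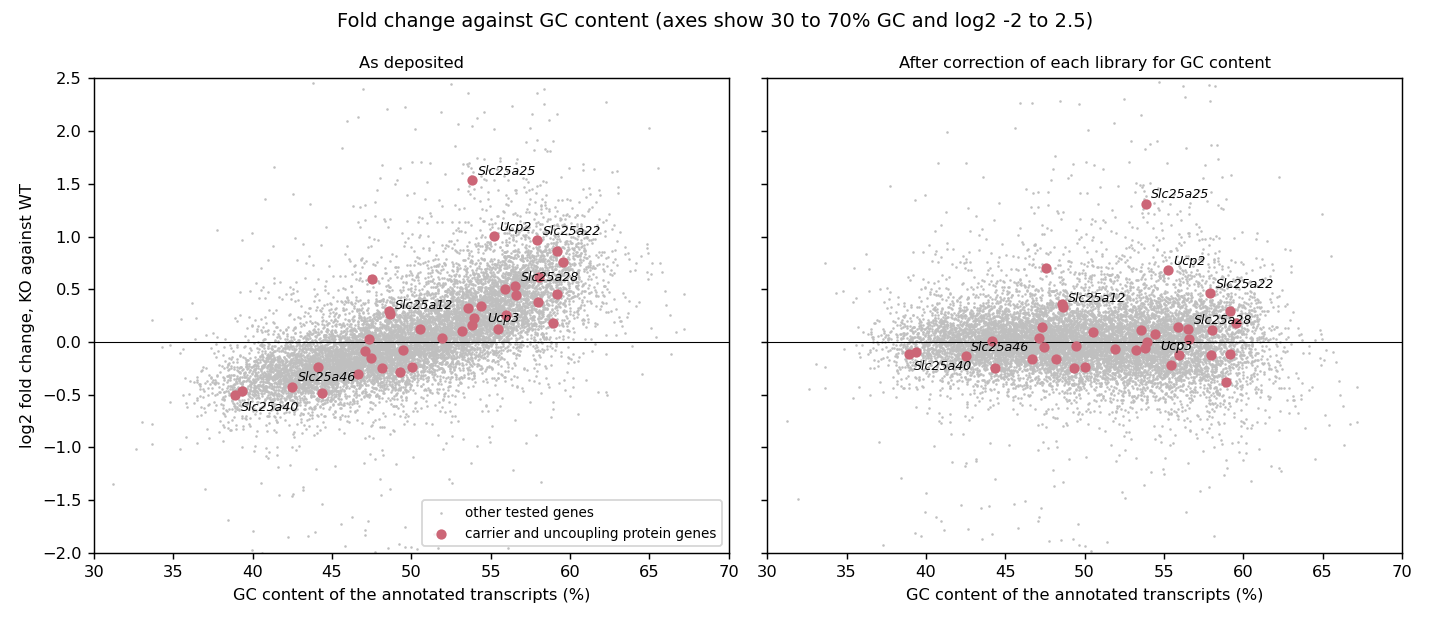
Log2 fold change, KO relative to WT, against the GC content of the annotated transcripts (percent) for the tested genes (grey) and 37 of the 38 tested carrier genes (red), as deposited on the left and after the GC correction on the right. On the left, members with low GC content such as *Slc25a40* lie below 0 and members with high GC content such as *Slc25a22* above it, along the slope of the other genes, and on the right the slope is gone. Genes beyond the axis limits are not drawn.

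The uncoupling proteins and their relatives came to 5 tested members, with a median log2 fold change of 0.34 that was 0.14 after the GC correction. *Ucp3* and *Ucp2* lie next to each other on chromosome 7 in the same orientation, 6904 bases apart. Ucp3 (ENSMUSG00000032942) is at chr7:100472990-100486432 and Ucp2 (ENSMUSG00000033685) at chr7:100493337-100502020, on the plus strand of GRCm38. The 250 bases up to each RefSeq start (GRCm38.p6) are shown because the pair are neighbours that differ in level and in GC content. The Ucp3 window is chr7:100472741-100472990 and the Ucp2 window chr7:100493108-100493357, both on the plus strand. The last 21 bases of the Ucp2 window, and the last base of the Ucp3 window, lie inside the genes as annotated above. Capitals mark AGGTCA, a motif bound by nuclear receptors, in the first, and CCGCCC, the reverse complement of the GC box GGGCGG, in the second.
Ucp3: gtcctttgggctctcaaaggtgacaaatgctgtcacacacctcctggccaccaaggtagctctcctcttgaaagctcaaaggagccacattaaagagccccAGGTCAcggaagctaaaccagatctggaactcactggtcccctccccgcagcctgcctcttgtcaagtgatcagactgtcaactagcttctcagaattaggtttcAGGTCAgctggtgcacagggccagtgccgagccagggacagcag
Ucp2: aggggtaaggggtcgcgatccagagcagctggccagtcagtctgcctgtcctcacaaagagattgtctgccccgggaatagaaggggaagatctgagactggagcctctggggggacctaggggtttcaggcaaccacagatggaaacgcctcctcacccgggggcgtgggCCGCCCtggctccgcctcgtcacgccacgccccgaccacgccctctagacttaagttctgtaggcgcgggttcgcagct
AGGTCA occurs 2 times before *Ucp3*, and was found on either strand in 12.8% of 21262 windows of protein-coding genes and in 11.1% of 45 windows of 36 carrier genes. The GC box occurred on either strand in 42.6% of the protein-coding windows and in 68.9% of the carrier windows. The *Ucp2* window had a GC content of 63.6% and the *Ucp3* window 54.8%.

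*Ucp3* was the more abundant of the pair in every library. Its levels were 23.8, 25.3 and 25.5 FPKM in WT and 20.8, 32.04 and 47.2 FPKM in KO. The WT libraries were close together, and the KO libraries reached both below and above them. Relative to WT the log2 fold change was 0.34 (SE 0.27, adjusted p = 0.437 by limma). It was 0.05 without KO replicate 8, 0.64 without KO replicate 1 and 0.08 after the GC correction.

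*Ucp2* was at 3.74, 2.82 and 3.54 FPKM in WT and at 3.97, 11.8 and 6.67 FPKM in KO. Each KO library lay above each WT library, narrowly in replicate 1 and most in replicate 7. The log2 fold change was 1.00 (SE 0.36, adjusted p = 0.143 by limma), 0.61 without KO replicate 7 and 0.68 after the GC correction. That library also had the highest sum of white adipocyte markers (172 FPKM), with the fat hormone gene *Adipoq* at 40.4 FPKM. The same library had the highest marker sums for leukocytes (48.5 FPKM), Schwann cells (82.8 FPKM) and endothelium (43.01 FPKM), while the erythroid sum was highest in KO replicate 8 (228 FPKM). The brown fat uncoupling protein *Ucp1*, not itself a member, was at 4.25 FPKM in KO replicate 7 and at no more than 0.314 FPKM in the other 5 libraries. Of the other brown adipocyte markers, *Cidea* was at 0.183 to 0.241 FPKM in WT and 0.463 to 3.26 FPKM in KO. *Elovl3* overlapped, at 0 to 0.169 FPKM in WT and 0.0387 to 0.149 FPKM in KO. The 3 markers summed to 0.338 to 0.606 FPKM in WT and 0.781 to 7.65 FPKM in KO. The part of RNA from fat cells or from these other cell types in the *Ucp2* values was not tested. *Ucp2* also shares up to 305 exonic bases with *Dnajb13* on the opposite strand, and whether counting used strand was not stated. The same limit holds for other members with opposite-strand exon overlap, among them *Slc25a46* (up to 383 bases), *Slc25a37* (381), *Slc25a25* (379) and *Slc25a11* (189).

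The ratio of *Ucp3* to *Ucp2* was 6.37, 8.99 and 7.22 in WT and 5.24, 2.71 and 7.08 in KO. The ranges overlapped. The mean log2 ratio differed by -0.68 between KO and WT (two-sided exact permutation test, p = 0.2), where 3 against 3 cannot give a p below 0.1. Leaving out KO replicate 7 brought the difference to -0.29.

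Among the relatives, *Slc25a27*, which encodes UCP4, was lower in each KO library. It was at 4.78, 4.53 and 3.93 FPKM in WT and at 3.60, 3.87 and 3.66 FPKM in KO. The log2 fold change was -0.24 (adjusted p = 0.263), and -0.24 after the GC correction. *Slc25a30* had a log2 fold change of 0.60, or 0.71 after the GC correction. Its groups overlapped, at 4.01 to 10.4 FPKM in WT and 6.44 to 18.2 FPKM in KO. *Slc25a14*, for UCP5, had a log2 fold change of 0.03.

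**Figure D4:**
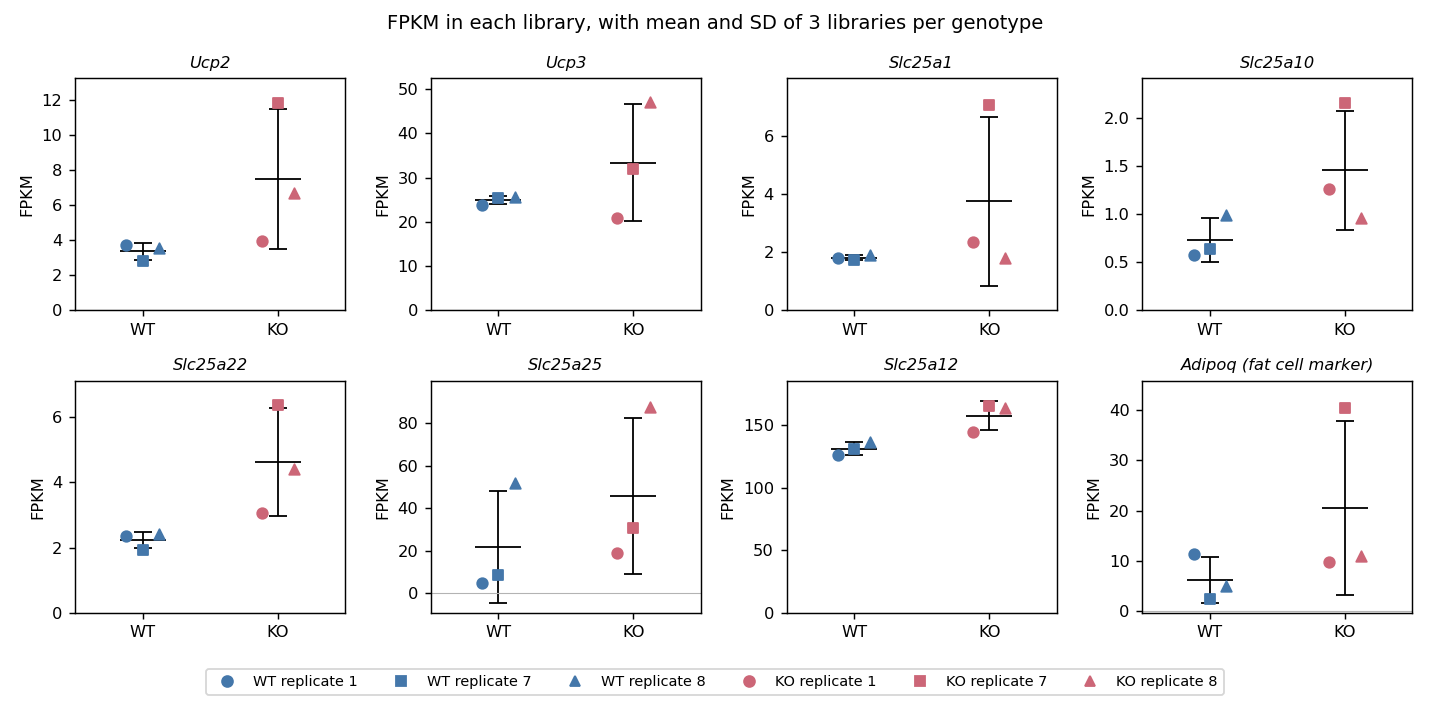
FPKM of 7 carrier genes and of the fat cell marker *Adipoq* in each GAS muscle library, with points for single libraries and bars for the mean and SD of 3 libraries per genotype. KO replicate 7 is the highest point for *Ucp2*, *Slc25a1*, *Slc25a10*, *Slc25a22*, *Slc25a12* and *Adipoq*, and replicate 8 is the highest in both genotypes for *Slc25a25*.

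The nucleotide and phosphate carriers made up 13 members, of which 10 were tested, with a median log2 fold change of 0.10 that was -0.02 after the GC correction. *Slc25a4* (ENSMUSG00000031633), the muscle adenine nucleotide translocase ANT1, was the most abundant member. It was at 1495, 1362 and 1424 FPKM in WT and at 1336, 1528 and 1528 FPKM in KO. The groups overlapped, and the log2 fold change of 0.04 (SE 0.11, adjusted p = 0.866) changed sign under median centring and with the correction for GC content. The phosphate carrier *Slc25a3* was at 601, 546 and 483 FPKM in WT and at 451, 538 and 548 FPKM in KO, also overlapping, with a log2 fold change of -0.08 (SE 0.13, adjusted p = 0.710) that turned positive with the GC correction and without KO replicate 1.

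*Slc25a5* encodes ANT2, the translocase of most other tissues. Its levels were 26.4, 20.6 and 26.955 FPKM in WT and 25.4, 33.01 and 31.99 FPKM in KO. The log2 fold change was 0.29 (SE 0.16, adjusted p = 0.270), and 0.36 after the GC correction. *Slc25a4* was 46.3 to 66.2 times as abundant as *Slc25a5* within single libraries. This ratio was 56.6, 66.2 and 52.8 in WT and 52.6, 46.3 and 47.8 in KO, and each KO value lay below each WT value, the nearest pair by a narrow margin. The mean log2 ratio differed by -0.26 (two-sided exact permutation test, p = 0.1, the smallest that 3 against 3 allows), and by -0.16 without WT replicate 7.

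*Slc25a25* varied most between libraries among the members averaging over 20 FPKM. It encodes a calcium-regulated carrier that exchanges ATP-Mg for phosphate, and lies on chromosome 2 (ENSMUSG00000026819, chr2:32414487-32451445, minus strand). Its levels were 4.60, 8.499 and 52.004 FPKM in WT and 18.8, 30.8 and 87.8 FPKM in KO. Replicate 8 was the highest library in both genotypes, and the groups overlapped widely. Its log2 fold change was 1.54 (SE 0.91, adjusted p = 0.313 by limma), and it was 2.55 without WT replicate 8, the highest of the leave-out values, which went down to 0.81. After the GC correction it was 1.31. With limma's weights for single libraries it was 2.42 (adjusted p = 0.0394), a setting that called 25.5% of all tested genes (15.1% higher and 10.4% lower in KO) and 26.3% of the tested members. Of the 3 start windows that RefSeq gives for the gene, the one at chr2:32424067-32424316 (minus strand, GRCm38.p6) is shown because it holds the cAMP response element TGACGTCA. Capitals mark that element and a GC box.
Slc25a25: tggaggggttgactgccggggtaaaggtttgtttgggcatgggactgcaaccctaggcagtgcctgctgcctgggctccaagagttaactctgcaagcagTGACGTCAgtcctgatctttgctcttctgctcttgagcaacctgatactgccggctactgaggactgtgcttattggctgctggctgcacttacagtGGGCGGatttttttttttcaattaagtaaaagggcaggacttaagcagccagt
TGACGTCA was found in 4.44% of the 45 carrier windows, those of *Slc25a25* and *Slc25a36*, and in 1.92% of the protein-coding windows. The letters are a description of the window and say nothing of binding. This window was chosen after the values were seen.

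The related ATP-Mg carrier *Slc25a23* was at 5.75, 7.19 and 6.72 FPKM in WT and at 8.08, 9.99 and 9.99 FPKM in KO. Its KO libraries lay above the WT libraries, with a log2 fold change of 0.51 (SE 0.14, adjusted p = 0.0962) that was 0.14 after the GC correction. *Slc25a36*, a carrier of pyrimidine nucleotides, went the other way. It was at 11.6, 15.8 and 15.8 FPKM in WT and at 9.59, 10.1 and 11.2 FPKM in KO, without overlap, and its log2 fold change of -0.47 (SE 0.15, adjusted p = 0.120) was -0.09 after the GC correction. The other 5 tested members of the group, *Slc25a42*, *Slc25a33*, *Slc25a17*, *Slc25a24* and *Slc25a5*, had overlapping levels, as did *Slc25a3*, *Slc25a4* and *Slc25a25*.

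The amino acid carriers numbered 9, of which 6 were tested. Their median log2 fold change was 0.35, and -0.02 after the GC correction. At an unadjusted p under 0.05, 3 of the 6 were higher in KO and none was lower, against 15.3% and 10.9% of all tested genes, and after the GC correction only *Slc25a12* of the 3 had a p under 0.05. *Slc25a12* (ENSMUSG00000027010) encodes aralar, the aspartate-glutamate carrier of the malate-aspartate shuttle, and was the most abundant of them. Its levels were 126, 131 and 137 FPKM in WT and 144, 165 and 164 FPKM in KO, without overlap. In the fit, its log2 fold change was 0.26 (SE 0.10, adjusted p = 0.164 by limma) and was 0.33 after the GC correction (adjusted p = 0.307). Its transcript GC content was 48.6%, below the median of all tested genes. Its liver counterpart *Slc25a13* stood at 0.116 to 0.313 FPKM and was not tested.

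*Slc25a22*, a carrier of glutamate with protons, was at 2.35, 1.94 and 2.41 FPKM in WT and at 3.07, 6.36 and 4.42 FPKM in KO. Each KO library was above each WT library, and the highest was again KO replicate 7. The log2 fold change was 0.96 (SE 0.26, adjusted p = 0.0911), 0.71 without that library and 0.46 after the GC correction. *Slc25a38*, which brings in glycine for haem synthesis, was at 3.11, 4.31 and 3.92 FPKM in WT and at 4.66, 4.74 and 6.14 FPKM in KO. The genotypes did not overlap, and the log2 fold change of 0.44 (SE 0.17, adjusted p = 0.163) was 0.03 after the GC correction. Erythroid markers, which belong to cells with high haem synthesis, were higher in KO too (113 to 228 against 64.9 to 98.2 FPKM), and their part was not tested. *Slc25a44*, *Slc25a29* and *Slc25a15*, carriers of branched-chain amino acids, basic amino acids and ornithine, had overlapping levels and log2 fold changes of 0.10, 0.45 and -0.25.

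The carriers of carboxylates numbered 6, and the log2 fold change was above 0 in each of the 5 tested, with a median of 0.62 that became 0.11 after the GC correction. *Slc25a11*, the oxoglutarate-malate carrier that completes the malate-aspartate shuttle, was at 143, 144 and 141 FPKM in WT and at 137, 166 and 163 FPKM in KO. The WT libraries were within a few FPKM of each other, the KO libraries lay on both sides, and the log2 fold change was 0.12 (SE 0.11, adjusted p = 0.495) and -0.21 after the GC correction. *Slc25a10*, the dicarboxylate carrier, was at 0.571, 0.637 and 0.995 FPKM in WT and at 1.26, 2.15 and 0.962 FPKM in KO. Its groups overlapped by 1 library, and the log2 fold change of 0.86 (SE 0.34, adjusted p = 0.170) was 0.56 without KO replicate 7 and 0.29 after the GC correction.

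The citrate carrier *Slc25a1*, which exports citrate for fatty acid synthesis, was at 1.80, 1.72 and 1.90 FPKM in WT and at 2.35, 7.08 and 1.81 FPKM in KO. Only KO replicate 7 stood far from the rest. Its log2 fold change was 0.76 (SE 0.45, adjusted p = 0.312), 0.19 without that library and 0.18 after the GC correction. *Slc25a34* had a log2 fold change of 0.62, which was 0.12 without the same library and 0.11 after the GC correction. KO replicate 7, which had the highest adipocyte marker sum, held the highest value of 13 of the 38 tested members (34.2%, against 21.4% of all tested genes), WT replicate 1 that of 10 and KO replicate 8 that of 8. KO replicate 7 also held the lowest value of 5 members, and lowest values were not counted over all tested genes. The part of fat cells or of these other cell types in the carrier values was not tested.

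The carnitine-acylcarnitine carrier *Slc25a20*, which brings long-chain fatty acids in for oxidation, had overlapping groups. In WT it stood at 41.4, 30.8 and 27.6 FPKM, in KO at 26.1, 35.3 and 32.7 FPKM, with a log2 fold change of -0.07 (SE 0.18, adjusted p = 0.824). Its sign changed with array weights and without KO replicate 1 or WT replicate 1.

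The carriers of cofactors, glutathione and metals all passed the filter, 8 of 8, and had a median log2 fold change of -0.08, or -0.14 after the GC correction. The mitochondrial iron importers went in opposite directions. *Slc25a28*, which encodes mitoferrin 2 of most tissues, was at 8.40, 11.2 and 11.3 FPKM in WT and at 14.4, 14.4 and 15.7 FPKM in KO. *Slc25a37*, which encodes mitoferrin 1 of red cell precursors, was at 6.29, 6.18 and 6.60 FPKM in WT and at 6.03, 4.33 and 5.34 FPKM in KO. Neither gene had overlapping groups. The log2 fold change was 0.53 (SE 0.14, adjusted p = 0.0929) for *Slc25a28* and -0.29 (SE 0.14, adjusted p = 0.244) for *Slc25a37*, and the GC correction brought them to 0.12 and -0.25. The difference between the 2 fold changes was not tested.

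*Slc25a32*, a carrier of folate and FAD, was at 3.66, 3.54 and 3.12 FPKM in WT and at 2.68, 2.22 and 2.40 FPKM in KO. *Slc25a40*, a relative of the glutathione carrier, was at 3.52, 2.48 and 2.57 FPKM in WT and at 2.19, 1.94 and 1.78 FPKM in KO. Both were lower in each KO library. Their log2 fold changes were -0.48 (SE 0.14, adjusted p = 0.101) and -0.50 (SE 0.18, adjusted p = 0.148), and -0.25 and -0.11 after the GC correction. *Slc25a40* had the lowest transcript GC content among the tested members, at 38.9%.

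*Slc25a26*, the S-adenosylmethionine carrier, was at 6.63, 6.35 and 6.89 FPKM in WT and at 7.29, 7.17 and 7.16 FPKM in KO, a small difference without overlap (log2 fold change 0.12, adjusted p = 0.475). *Slc25a16* was at 11.4, 12.2 and 12.05 FPKM in WT and at 11.3, 7.88 and 10.05 FPKM in KO, lower in each KO library (log2 fold change -0.30, adjusted p = 0.236). The glutathione carrier *Slc25a39* had overlapping levels and a log2 fold change of 0.18. After the GC correction *Slc25a39* had a log2 fold change of -0.38, with an adjusted p of 0.356.

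*Slc25a46* differs from most of the family, since its protein lies in the outer membrane and acts in mitochondrial division and lipid transfer. Its levels were 24.2, 22.9 and 21.4 FPKM in WT and 18.1, 15.6 and 17.2 FPKM in KO. Every KO library was below every WT library, with a gap larger than the spread within either genotype. Its log2 fold change was -0.43 (SE 0.11, adjusted p = 0.0853), between -0.47 and -0.37 when single libraries were left out, and -0.14 after the GC correction. *Slc25a47* and *Slc25a45*, little-studied members, were at 0.511 to 1.13 FPKM in single libraries and overlapped between the genotypes.

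The 8 members under the filter were *Slc25a13*, *Slc25a2*, *Slc25a41*, *Slc25a43*, *Slc25a31*, *Slc25a18*, *Slc25a21* and *Slc25a48*. None was above 0.349 FPKM in any library, and *Slc25a41*, *Slc25a43*, *Slc25a18*, *Slc25a21* and *Slc25a48* were listed at 0 in at least 1. They include *Slc25a31*, the translocase of the testis. No difference between the genotypes was tested for these members.

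Other members were neighbours in the genome and yet far apart in level. *Slc25a43* and *Slc25a5* lie 18448 bases apart on chromosome X, with mean levels of 0.0671 and 27.4 FPKM. *Slc25a41* and *Slc25a23*, both ATP-Mg carriers, lie 2056 bases apart on chromosome 17, at 0.153 and 7.95 FPKM. *Slc25a29* and *Slc25a47* start 162 bases apart on opposite strands of chromosome 12, and were closer in level, at 1.50 and 0.791 FPKM. Carriers that the table listed under the older symbol *Mcart1* fell outside the rule, and the expressed entry, now called *Slc25a51* and known as the NAD carrier, was at 14.5 to 20.6 FPKM in WT and at 15.9 to 22.3 FPKM in KO.

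Genes that work with the carriers gave no call either at an adjusted p under 0.05, by limma. Of 7 shuttle enzymes, 1 was higher at an unadjusted p under 0.05 (14.3%, against 15.3% of all tested genes), the mitochondrial malate dehydrogenase *Mdh2*, and none was lower, with a median log2 fold change of 0.32 (0.05 after the GC correction). *Mdh2* was at 380, 377 and 386 FPKM in WT and at 429, 531 and 492 FPKM in KO (log2 fold change 0.34, adjusted p = 0.126). Of 5 tested genes of the carnitine system, 1 was higher (20%, against the same 15.3%), the muscle carnitine palmitoyltransferase *Cpt1b*, at 61.7, 74.5 and 71.2 FPKM in WT and 85.5, 110.5 and 102 FPKM in KO (log2 fold change 0.52, adjusted p = 0.0859, and 0.16 after the GC correction). Both genes separated the genotypes without overlap.

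Carrier proteins are made in the cytosol and reach the inner membrane through the TOM and TIM complexes. Of 11 tested genes for this import, 2 were higher (18.2%, against 15.3% of all tested genes) and 1 lower (9.09%, against 10.9%) at an unadjusted p under 0.05, with a median log2 fold change of -0.12 that was 0.04 after the GC correction. The outer membrane pore *Tomm40* was at 4.88, 5.43 and 6.57 FPKM in WT and at 9.75, 11.97 and 11.4 FPKM in KO (log2 fold change 0.97, adjusted p = 0.0655). The chaperone *Timm13* had a log2 fold change of 1.07 (adjusted p = 0.0700), and *Tomm70a*, the receptor that carrier precursors bind, one of -0.40 (adjusted p = 0.107). After the GC correction these values were 0.47, 0.43 and -0.01. The genes for the receptor and the pore of the same import route lay on opposite sides of 0 in the deposited values.

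Of 14 tested genes of other transport across the mitochondrial membranes, 3 were higher and 3 lower at an unadjusted p under 0.05 (21.4% each, against 15.3% and 10.9% of all tested genes), with a median log2 fold change of 0.08. The higher ones were *Mtch1*, *Letm1* and *Tspo*, with log2 fold changes of 0.72, 0.51 and 1.05, and of 0.28, 0.42 and 0.52 after the GC correction. The lower ones were the outer membrane channels *Vdac3* and *Vdac2* and the insertase *Mtch2*, with -0.34, -0.27 and -0.33, and -0.02, -0.18 and -0.12 after the GC correction. Of 15 reference genes for mitochondrial content, such as those of respiration, 5 were higher at an unadjusted p under 0.05 (33.3%, against 15.3%) and none lower, with a median log2 fold change of 0.02. They include *Cox4i1*, *Uqcrc1*, *Ndufv1* and *Sdhb*, at log2 fold changes of 0.53, 0.53, 0.50 and 0.44, which were 0.21, 0.21, 0.11 and 0.20 after the GC correction, while the ATP synthase genes *Atp5a1* and *Atp5b*, which *Slc25a4* and *Slc25a3* supply, were at 0.02 and 0.01.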

How the data were processed

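RNA-seq libraries of GAS muscle from 3 Kvβ2 KO and 3 WT mice were analysed from the deposited gene table. The authors aligned reads and estimated FPKM per gene. The submitters' processing notes name TopHat, Cufflinks and GRCm38, with versions not given in the sources used here. Genotype was taken from the sample labels, and replicate numbers from the same labels.

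FPKM values as deposited were put on the scale log2(FPKM + 0.1), and the 12334 genes averaging 0.5 FPKM or higher were fitted with limma 3.58.1 (R 4.3.3) with a trend of the variance on level. P-values were adjusted by Benjamini-Hochberg over all tested genes, with 0.05 as the threshold, and a member was given with its value in every library where it was *Ucp2* or *Ucp3*, averaged at least 20 FPKM, had an unadjusted p under 0.05, did not overlap between genotypes, or was among the 3 largest changes in either direction. Ratios were compared by exact permutation tests over all 20 arrangements of the libraries (numpy 2.4.6). Fold changes on this scale understate those of low genes. Depth was estimated from the steps between low FPKM values, where 89.9% to 92.0% of those values were whole to within 0.15 fragments. GC content, pooled over the annotated transcripts of a gene, and exonic length came from the GENCODE annotation of GRCm38. Of the tested genes, 97.2% had a value. The correction removed a loess curve (span 0.3) from each library's deviations. No values repeated between libraries beyond 1 of 14983 genes in any pair. The fit was tested on simulated data with planted changes larger than that of any tested member. That check does not show how well the fit finds changes of the members' size.

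The alternatives were other pseudocounts, filters, scalings and variance models, a block for replicate number, corrections for GC content and length, removal of genes listed at 0, and removal of single libraries. The members, the lists of other genes and the tests were chosen with earlier results of these data known. One tested member and some genes of the other lists are counted but not reported by name here.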

Additional observations from a re-analysis of the deposited data

How the results depend on the processing

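No carrier gene reached an adjusted p under 0.05 in any alternative but array weights, which called 7 higher and 3 lower, or 26.3% of the tested members, beside 25.5% of all tested genes. The number of genes called over the whole table, 40, was less stable. It was 11 with a pseudocount of 1 FPKM, 20 without the filter, 18 after quantile normalization, 19 without the variance trend, 3147 with array weights, 13 with the replicate block, 14 with the GC correction, 12 with the GC correction and replicate block, and 1 without genes listed at 0. Leaving out single libraries gave 11 to 38, with 11, 15 and 12 without KO replicate 1, 7 or 8, 16 and 15 without WT replicate 1 or 7, and 38 without WT replicate 8. The replicate numbers are not taken to pair the libraries: deviations from the group means correlated at -0.03, -0.08 and 0.03 between libraries numbered 1, 7 and 8, and not every library correlated best with its own number.

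The 11 carriers at an unadjusted p under 0.05 became 18 with array weights, 2 with the GC correction, 3 with the GC correction and replicate block, and 6 to 13 when single libraries were left out. With the replicate block alone there were 10. The median log2 fold change of all 38 tested carriers, 0.20, reversed to -0.023 with the GC correction, with or without the replicate block. It was 0.14 to 0.23 when single libraries were left out. The causes were not tested beyond the construction of each alternative.

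Of 418 values of 22 carriers under the alternatives, 395 kept their direction and side of the threshold, 10 passed the threshold with array weights, and 13 changed sign. *Slc25a4* was -0.013 after median centring, -0.16 after quantile normalization, -0.068 with the GC correction (with or without the replicate block) and -0.050 with the length correction. *Slc25a3* was 0.040 with the GC correction and ranged from -0.17 to 0.0053 without single libraries. *Slc25a11* was -0.21 with the GC correction. *Slc25a20* was 0.027 with array weights and ranged from -0.20 to 0.094 without single libraries. With the replicate block, *Slc25a25* kept its log2 fold change of 1.54 with a smaller SE of 0.26 (adjusted p = 0.118 by limma). Depth limits the 8 members below 0.5 FPKM most, and KO libraries were shallower than WT libraries.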
